A study of Mus musculus with 32 samples.

Results

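Platelets carry ready-made proteins in storage granules, and the RNA for several of them is already made in megakaryocytes and their progenitors. The genes described here are 9 such genes out of 33924 in the count table: Pf4, Ppbp, Vwf, Thbs1, Mmrn1, Selp, Plek, Sdpr and Rab27b. They are a list by name of proteins of the alpha granule or of granule release, set with no threshold on their values but with earlier results of these data known. All 9 passed the filter on low counts in each cell type, Ppbp in MEP cells through the treated groups in which it is high.

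Alpha granules hold chemokines, adhesive glycoproteins and clotting factors that a platelet releases when it is activated. Release needs small GTPases and membrane fusion proteins, and it follows signalling through protein kinase C, whose best known platelet substrate is pleckstrin. Several of these genes, Vwf and Pf4 among them, are also used in mouse bone marrow to mark stem cells with a bias towards the platelet lineage.

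The libraries came from mice carrying Jak2V617F, the activating kinase allele found in myeloproliferative neoplasms. The allele had been switched on outside the body with mRNA for the Dre recombinase, and the cells were then grafted into recipients after lethal irradiation, so all 10 groups share the allele's earlier activation and the transplant. Tamoxifen activates Cre, which deletes the allele, and ruxolitinib inhibits the kinases JAK1 and JAK2 while the allele stays in place. LSK cells (lineage-negative, Sca1+, Kit+ stem and progenitor cells) and MEP cells (megakaryocyte-erythroid progenitors) were sorted after each treatment. In LSK cells there were 3 libraries at day 3 of tamoxifen and 4 at day 7, with 4 vehicle libraries of batch A, and 3 libraries at day 7 of ruxolitinib with 2 vehicle libraries of batch C. In MEP cells there were 4 libraries at day 3 and 3 at day 7 of tamoxifen, with 3 vehicle libraries of batch A, and 3 libraries of ruxolitinib with 3 vehicle libraries of batch C. The 2 sets of vehicle libraries are called vehicle A and vehicle C below, and both are labelled day 0. No group had tamoxifen without the deletable allele, so deletion of the allele and tamoxifen itself cannot be told apart. The age and sex of the animals and the promoter that drives Cre are not given in the labels.

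Total counts were 11.2 to 28.8 M per library in batch A and 26.5 to 55.5 M in batch C. Erythroid markers summed to between 6910 and 20800 counts scaled to 1 M per library (CPM) in MEP libraries and to between 405 and 3170 CPM in LSK libraries. Stem cell markers summed to between 36.1 and 123 CPM in MEP libraries and to between 351 and 2560 CPM in LSK libraries, so both sorts carried the markers their names call for. LSK libraries also carried macrophage markers, given below. Jak2 counts join the mutant and the normal allele and cannot show the deletion. They were 13.0 to 25.6 CPM at day 7 against 15.0 to 19.0 CPM in vehicle A MEP libraries. The shallowest library was replicate 2 of MEP day 7, and its scaling factor in the MEP fit was 1.92. The animal numbers of the vehicle C libraries, 12 and 18 for LSK and 12, 32 and 33 for MEP, also occur in vehicle A. The labels do not say whether these are new libraries of the same animals. Nothing in the labels says that the other libraries of a group came from separate donors, so p-values measure the spread between libraries.

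The chemokine genes Pf4 and Ppbp are neighbours on mouse chromosome 5, both on the plus strand, and 2372 bases separate the end of Ppbp from the start of Pf4. Pf4 lies at chr5:90772435-90773383 and Ppbp at chr5:90768518-90770063 (mm10, GENCODE positions). Mmrn1 lies on chromosome 6 at chr6:60924976-60989378. The bases just before the RefSeq start of these 3 genes are shown because these are the genes of the 9 that encode soluble granule cargo and rose in MEP cells both at day 7 and under ruxolitinib. They are RefSeq sequences on GRCm38.p6, read 5′ to 3′. Capitals mark the letters of an ETS family motif (AGGAAG, on the reverse strand here) or of a GATA family motif (TGATAA).
Pf4, chr5:90772185-90772434, plus strand: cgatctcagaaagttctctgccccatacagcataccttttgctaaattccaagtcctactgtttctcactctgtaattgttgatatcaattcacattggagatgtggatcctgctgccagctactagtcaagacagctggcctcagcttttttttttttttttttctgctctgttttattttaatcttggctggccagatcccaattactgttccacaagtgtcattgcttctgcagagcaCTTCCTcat
Ppbp, chr5:90768268-90768517, plus strand: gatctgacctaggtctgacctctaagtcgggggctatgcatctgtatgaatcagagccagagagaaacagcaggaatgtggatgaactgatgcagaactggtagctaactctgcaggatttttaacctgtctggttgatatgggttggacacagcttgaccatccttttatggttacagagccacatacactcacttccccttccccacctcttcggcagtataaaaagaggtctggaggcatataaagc
Mmrn1, chr6:60944067-60944316, plus strand: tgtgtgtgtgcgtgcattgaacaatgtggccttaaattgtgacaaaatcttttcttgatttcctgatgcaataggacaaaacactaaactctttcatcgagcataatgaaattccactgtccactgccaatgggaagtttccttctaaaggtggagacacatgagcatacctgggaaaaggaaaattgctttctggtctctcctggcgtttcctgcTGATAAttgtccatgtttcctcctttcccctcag
The window of each promoter ran from 250 bases before to 50 bases after the start and was searched on both strands. Motif results cover 6 of the 9 genes, those named in the next sentences. The other genes were left out of this search, which does not mean that they have no promoter window. The Pf4 window held AGGAAG on the reverse strand at -9 and a GATA motif at 36 bases after the start, which is past the printed stretch. The Mmrn1 window held TGATAA at -34, and its RefSeq start lies inside the longer GENCODE gene. The Ppbp and Plek windows held none of the motifs searched, the Sdpr window held AGGAAG once and the Selp window held it 2 times. Over 32851 promoter windows of this length, 29.8% held a GATA family motif (AGATAA, or that word with T as the first letter, G as the last letter, or both), 35.4% held AGGAAG and 8.3% held the STAT5 motif TTCNNNGAA. The last was in none of the 6 windows.

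Under vehicle, all 9 genes were lower in MEP cells than in LSK cells, in both batches. At 0.05 after Benjamini-Hochberg adjustment (edgeR's quasi-likelihood test, as in all tests here), 8.71% of all genes were lower in MEP under vehicle A and 8.46% under vehicle C. The fitted log2 difference was -5.64 ± 0.67 (SE) for Plek, -5.39 ± 0.57 for Selp and -5.25 ± 0.56 for Sdpr under vehicle A. It was -5.86 ± 0.7, -7.01 ± 0.64 and -5.53 ± 0.59 for these genes under vehicle C. The smallest differences were those of Vwf, at -2.07 ± 0.35 under vehicle A and -2.38 ± 0.39 under vehicle C, and of Rab27b, at -2.62 ± 0.45 and -2.26 ± 0.49 in those batches. These 2 genes were the least far apart between the cell types. Thbs1 was the only gene whose ranges overlapped, in batch A alone, while MEP was lower without overlap for 11.3% of all genes in batch A and 16.8% in batch C. Its MEP levels were 0.556 to 1.86 CPM, and LSK replicate 3 stood at 1.83 CPM while the other LSK libraries were at 16.7 to 22.5 CPM.

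Levels of different genes can be compared only per length of transcript, as mean CPM per kilobase of merged exons. Pf4, which has the shortest exons of the 9 genes at 721 bases, was first in all 10 groups. It had 11.5 CPM per kilobase in vehicle A MEP cells and 239 in vehicle A LSK cells. In LSK vehicle A it was followed by Plek at 46, Selp at 33.4, Mmrn1 at 18.2, Sdpr at 13.4 and Vwf at 12.4 CPM per kilobase. In MEP vehicle A the gene after Pf4 was Vwf at 2.94, ahead of Plek at 0.933, and Ppbp was last at 0.0392 CPM per kilobase. At tamoxifen day 7 the MEP order was Pf4 at 123, Plek at 11.7, Vwf at 5.45 and Sdpr at 4.88 CPM per kilobase. Under ruxolitinib it was Pf4 at 137, Plek at 14.6, Sdpr at 4.48 and Vwf at 3.12.

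**Figure D1:**
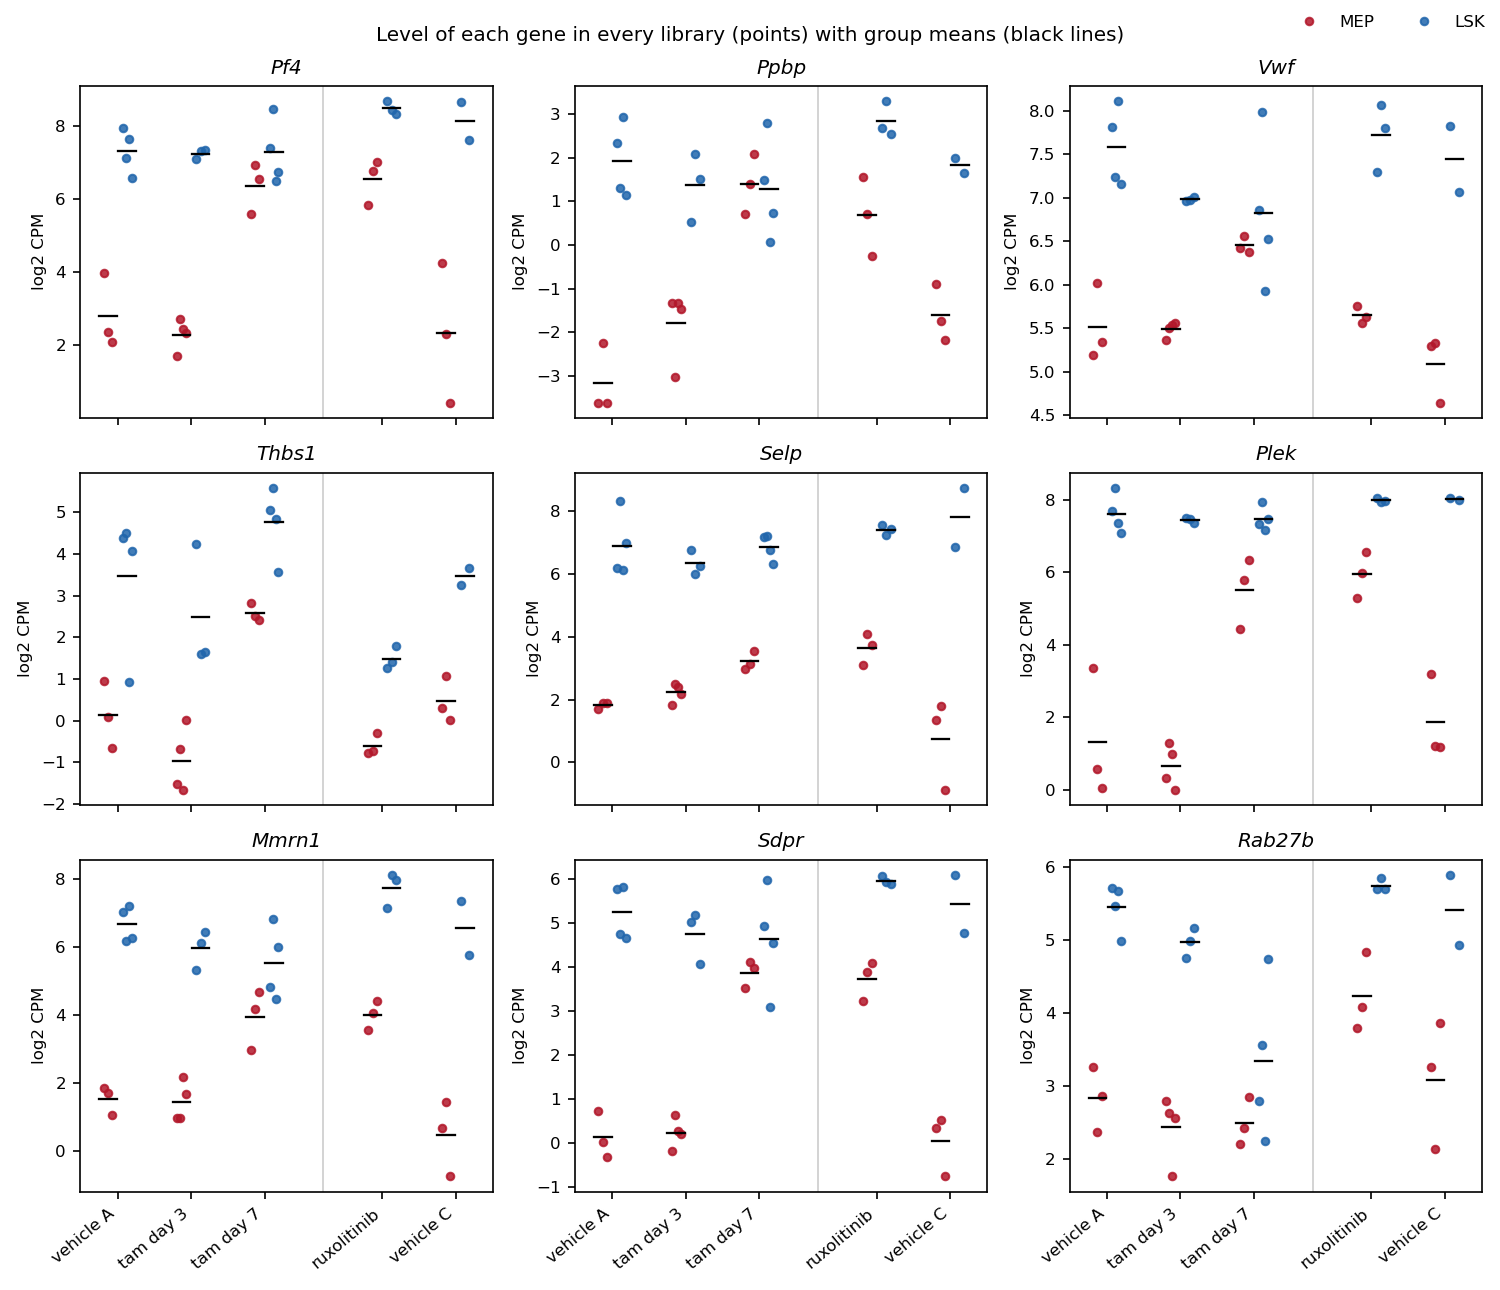
Level of each of the 9 genes in every library, as log2 CPM with a prior count of 2 on the vertical axis, with MEP libraries in red and LSK libraries in blue. Black lines are means of the log2 values, and the grey line parts batch A from batch C. In MEP cells the day 7 and ruxolitinib points of Pf4, Plek, Mmrn1 and Sdpr lie above all vehicle points, and the day 3 points lie at or near the vehicle level.

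At day 7 of tamoxifen, 7 of the 9 genes were higher in MEP cells than under vehicle A and none was lower. Ppbp is among the 7, though it passed the filter through the groups in which it is high. The fitted changes ran up to 14.1-fold for Sdpr among genes with reads in every vehicle library. Of all 25274 genes tested in MEP cells, 1.38% were higher and 7.03% lower. The median log2 change of the 9 genes was 2.6, against 0.21 over all genes tested. In these bulk libraries, more cells of a kind and more RNA per cell cannot be told apart. Values are CPM on the scale of all 32 libraries, replicates in order.

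The chemokines come first. Pf4 encodes platelet factor 4 (CXCL4), the most abundant chemokine of the alpha granule. It stood at 48.6, 123 and 94.9 CPM in the day 7 libraries, against 15.7, 5.01 and 4.19 CPM under vehicle A. The log2 change was 3.47 ± 0.64 (11.1-fold, adjusted p = 0.000497). All 3 day 7 libraries lay above all vehicle libraries, of which replicate 1 was the highest, and without that replicate the log2 change was 4.26. Ppbp encodes the precursor of CXCL7, which attracts neutrophils. It stood at 1.55, 2.57 and 4.19 CPM at day 7, and under vehicle A 1 library had 0.127 CPM and the other two had no read. That is 183 reads against 3, a ratio per unit of depth of 59.9 with an exact 95% interval of 20.2 to 293 that covers counting error only. Ppbp had 41 to 92 reads per MEP library at day 7 and 20 to 62 under ruxolitinib, against 0 to 3 under vehicle A and 3 to 11 under vehicle C. Since it passed the filter through the groups in which it is high, the adjusted p of 0.000182 adds no separate support. The fitted log2 change, 5.84 ± 0.98, rests on the 3 vehicle reads of replicate 2 and was 9.12 without that library. Ppbp thus remained a low gene in MEP cells even where its ratio was the largest of the 9.

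Among the adhesive proteins, Vwf encodes von Willebrand factor, which tethers platelets to collagen and carries factor VIII. It stood at 85.7, 94 and 82.9 CPM at day 7, against 36.4, 64.9 and 40.5 CPM under vehicle A. The log2 change was 0.91 ± 0.26 (1.88-fold, adjusted p = 0.0288), the smallest called change among the 9 genes. The ranges did not overlap, but the call was lost on leaving out vehicle A replicate 1 or 3 or any day 7 library, with log2 changes of 0.74 to 1.35 over all alternatives and an adjusted p of up to 0.148. Thbs1 encodes thrombospondin 1, which binds fibrinogen, integrins and CD36. It stood at 7.02, 5.61 and 5.23 CPM at day 7, against 1.86, 0.977 and 0.556 CPM under vehicle A. The log2 change was 2.45 ± 0.59 (5.46-fold, adjusted p = 0.0075), and the day 7 libraries were close to each other and all above vehicle. Mmrn1 encodes multimerin 1, the alpha granule protein that binds factor V. It stood at 7.77, 18.1 and 25.5 CPM at day 7, against 3.56, 3.19 and 2.01 CPM under vehicle A. The log2 change was 2.6 ± 0.54 (6.04-fold, adjusted p = 0.00184) with no overlap, although the lowest day 7 library, replicate 1, was much nearer to vehicle than the other two.

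Selp encodes P-selectin, the receptor of the granule membrane that reaches the platelet surface on activation and binds leukocytes. Its levels were 7.7, 8.79 and 11.6 CPM at day 7, against 3.2, 3.65 and 3.63 CPM under vehicle A. The log2 change of 1.45 ± 0.5 missed the threshold (adjusted p = 0.0759). The groups did not overlap, as was so for 8 of the 9 genes in the higher direction and for 14.3% of all genes. The change passed with RLE scaling, with DESeq2 and with a fit of the compared groups alone, and its adjusted p over the alternatives ran from 0.00251 to 0.216.

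Plek encodes pleckstrin, the protein kinase C substrate of platelets and leukocytes that takes part in secretion and in changes of the cytoskeleton. It stood at 21.4, 55.5 and 80.8 CPM at day 7, against 10.2, 1.4 and 0.94 CPM under vehicle A. The log2 change was 3.74 ± 0.7 (13.3-fold, adjusted p = 0.000592). All day 7 libraries lay above vehicle. Replicate 1 of vehicle A, from the animal numbered 12, was high for Plek as for Pf4, and without it the log2 change of Plek was 5.48. Sdpr, also called Cavin2, encodes a coat protein of caveolae first described as a phosphatidylserine-binding protein of platelets. It stood at 11.5, 17.5 and 15.7 CPM at day 7, against 1.6, 0.935 and 0.727 CPM under vehicle A. The log2 change was 3.82 ± 0.48 (14.1-fold, adjusted p = 3.79e-06), with the smallest adjusted p of the 9 genes. No alternative moved it below 3.62. Rab27b encodes a small GTPase that docks secretory granules and is needed for dense granule release in mouse platelets. It stood at 4.51, 5.3 and 7.1 CPM at day 7, against 9.49, 5.1 and 7.18 CPM under vehicle A. Its log2 change was -0.32 ± 0.4 (adjusted p = 0.716) and the ranges overlapped, so no change of Rab27b was detected.

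At day 3 of tamoxifen none of the 9 genes passed the test in MEP cells, where 1.21% of all genes did in either direction. DESeq2 also called none, and 3 had an unadjusted p under 0.05. These were Ppbp at a log2 change of 2.27 ± 1.02, Thbs1 at -1.16 ± 0.56 and Plek at -1.35 ± 0.63, with adjusted p of 0.626, 0.725 and 0.68. Plek stood at 1.17, 2.36, 1.89 and 0.92 CPM at day 3, against 10.2, 1.4 and 0.94 CPM under vehicle A, and without vehicle replicate 1 its log2 change was 0.42. Ppbp had 23 reads at day 3 against 3 under vehicle A, a ratio of 5.27 with an exact 95% interval of 1.59 to 27.4 for counting error. Pf4 stood at 3.15, 6.46, 5.31 and 4.92 CPM at day 3, within the vehicle range but for replicate 1. Sdpr at 0.809 to 1.49 CPM and Vwf at 41.3 to 47.2 CPM lay within the vehicle range at day 3.

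Set directly against each other, day 7 was higher than day 3 for 7 of the 9 genes, while 1.04% of all genes were higher. Ppbp is again among the 7, with the same limit from the filter. The log2 change was 5.08 ± 0.66 for Plek (33.9-fold, adjusted p = 3.78e-06), 4.18 ± 0.59 for Pf4 (18.2-fold, adjusted p = 1.05e-05) and 3.74 ± 0.43 for Sdpr (13.4-fold, adjusted p = 5.21e-07). Thbs1 changed by 3.61 ± 0.56, Ppbp by 3.57 ± 0.72, Mmrn1 by 2.63 ± 0.48 and Vwf by 1 ± 0.24. The 3 day 7 libraries lay above the 4 day 3 libraries for each of these genes, as they did for 8.98% of all genes. Selp had a log2 change of 1.03 ± 0.45 without overlap (adjusted p = 0.226) and Rab27b one of 0.08 ± 0.37.

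Ruxolitinib was compared with vehicle C, its own batch. In MEP cells 7 of the 9 genes were higher and none was lower at the threshold, where 3.43% of all genes were higher and 38.5% lower. The 7 include Ppbp, whose p adds no separate support. The median log2 change of the 9 genes was 2.45, against -1.07 for the whole set of genes tested. Most called genes of this comparison were lower, so the rises ran against the direction of most calls. The median covers genes of every level tested, low ones included. No median is given here for genes at the level of these 9, so it is no matched background for them.

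Pf4 stood at 57.8, 110 and 129 CPM under ruxolitinib, against 18.9, 4.81 and 1.26 CPM under vehicle C. Its log2 change was 3.37 ± 0.63 (10.3-fold, adjusted p = 0.000429), and 4.88 without vehicle replicate 1, the highest of the vehicle libraries. Ppbp stood at 2.85, 1.57 and 0.764 CPM under ruxolitinib, against 0.453, 0.217 and 0.14 CPM under vehicle C. These are 121 reads against 20, and the log2 change was 2.45 ± 0.78 (adjusted p = 0.0145). As at day 7, that p adds no separate support, since Ppbp passed the filter in MEP cells through the treated groups. The same holds for the other tests of Ppbp within MEP cells. The ruxolitinib call was lost without vehicle replicate 2, without ruxolitinib replicate 1 or with the compared groups fitted alone. The groups did not overlap for either chemokine.

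Mmrn1 stood at 11.8, 16.5 and 21.4 CPM under ruxolitinib, against 1.52, 2.64 and 0.513 CPM under vehicle C. Its log2 change was 3.17 ± 0.55 (adjusted p = 0.000258), and 3.9 without vehicle replicate 2. Vwf stood at 53.8, 47.2 and 49.6 CPM under ruxolitinib, against 39.2, 40.1 and 24.9 CPM under vehicle C. The groups did not overlap, yet the log2 change of 0.34 ± 0.26 did not pass (adjusted p = 0.305). Thbs1 had lower values, with 0.506, 0.522 and 0.726 CPM under ruxolitinib, against 1.15, 2.02 and 0.933 CPM under vehicle C. Its log2 change of -1.41 ± 0.6 missed the threshold (adjusted p = 0.0595) and passed without vehicle replicate 3. It was lower without overlap, as were 34.4% of all genes.

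Selp stood at 8.56, 16.9 and 13.4 CPM under ruxolitinib, against 2.47, 3.36 and 0.466 CPM under vehicle C. Its log2 change was 2.38 ± 0.51 (adjusted p = 0.00111), and 2.98 without vehicle replicate 2. Plek stood at 38.7, 63.1 and 94.3 CPM under ruxolitinib, against 8.97, 2.24 and 2.19 CPM under vehicle C. Its log2 change was 3.71 ± 0.69 (adjusted p = 0.000409), and 4.8 without vehicle replicate 1, which again carries the animal number 12. Sdpr stood at 9.3, 14.7 and 17 CPM under ruxolitinib, against 1.19, 1.37 and 0.513 CPM under vehicle C, with a log2 change of 3.52 ± 0.48 (adjusted p = 6.36e-05). None of these 3 genes had overlapping groups, and 7 of the 9 were higher without overlap, as were 6.33% of all genes. Rab27b stood at 13.8, 16.8 and 28.4 CPM under ruxolitinib, against 9.46, 4.3 and 14.5 CPM under vehicle C. Its groups overlapped, and its log2 change of 0.99 ± 0.4 passed narrowly (adjusted p = 0.0474). That call was lost in several alternatives, among them the omission of vehicle C replicate 1 or 2 or of ruxolitinib replicate 2 or 3, and its adjusted p reached 0.318.

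**Figure D2:**
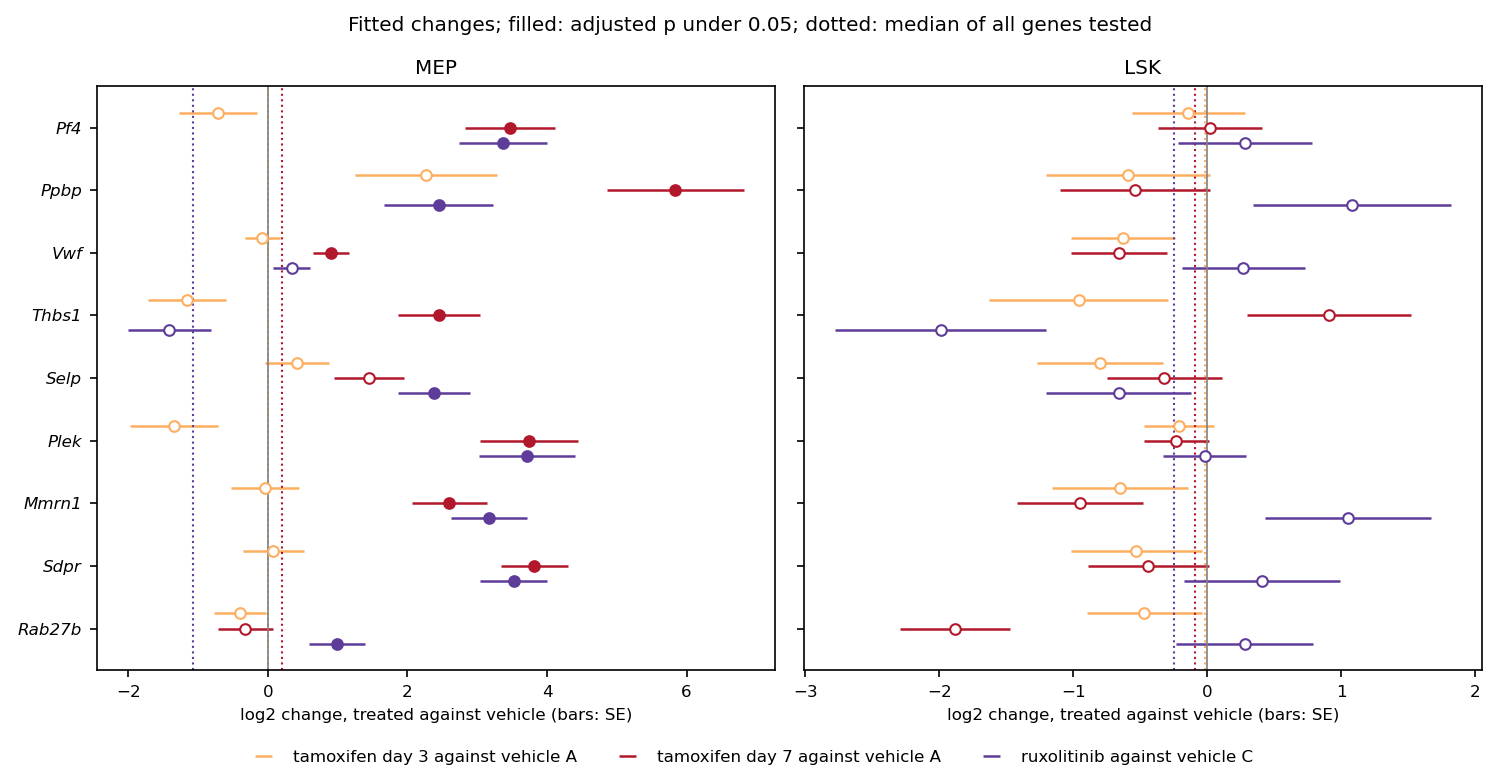
Fitted log2 change of each gene against the vehicle of its batch, for day 3 (orange), day 7 (red) and ruxolitinib (purple), with standard errors as bars. Filled points passed 0.05 after adjustment over all genes, and dotted lines mark the median over all genes tested. The filled points are all in MEP cells, 7 for day 7 and 7 for ruxolitinib, and all lie above 0.

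The change at day 7 and the change under ruxolitinib rest on different vehicle libraries, which carry the same animal numbers, and the difference between the changes was tested in MEP cells. It passed for 2 of the 9 genes, both higher for tamoxifen, where 36.5% of all genes were higher. The median difference over all genes was 1.38. For Thbs1 the difference was 3.86 ± 0.84 (adjusted p = 0.00145), the gene being at 5.23 to 7.02 CPM at day 7 and at 0.506 to 0.726 CPM under ruxolitinib. For Ppbp, at 1.55 to 4.19 CPM at day 7 and 0.764 to 2.85 CPM under ruxolitinib, the treated ranges overlapped, and the vehicles differed, with a mean of 0.0425 CPM in vehicle A and 0.27 CPM in vehicle C. Its difference was 3.39 ± 1.26 (adjusted p = 0.0322), and that call was lost on leaving out vehicle A replicate 1 or 3, vehicle C replicate 1, day 7 replicate 2 or 3, or ruxolitinib replicate 2 or 3. As with the other tests of Ppbp within MEP cells, that p adds no separate support. For Pf4, Plek and Sdpr the differences were 0.11, 0.03 and 0.29, with 95% intervals of -1.59 to 1.81, -1.81 to 1.87 and -1.01 to 1.6. These intervals allow differences of several-fold either way. Rab27b differed by -1.32 ± 0.56, which missed the threshold (adjusted p = 0.0582). In LSK cells none of the 9 differences passed, against 0.00371% of all genes, and 3 had an unadjusted p under 0.05. DESeq2 called none, whereas voom with animal number as a random block, at a correlation of 0.762 between LSK libraries of an animal, called Mmrn1 at -2.31 ± 0.55 (adjusted p = 0.034) and Rab27b at -2.61 ± 0.46 (adjusted p = 0.0147). In LSK cells this block joined only the vehicle A and vehicle C libraries of the animal numbers 12 and 18, so that correlation rests on few libraries.

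In LSK cells none of the 9 genes passed in any of the 3 treatment comparisons, where the share of all genes called was 0% at day 3, 0.104% at day 7 and 0.0223% under ruxolitinib. At an unadjusted p under 0.05 none passed at day 3, 1 at day 7 (Rab27b) and 1 under ruxolitinib (Thbs1), and DESeq2 called none at day 3 or under ruxolitinib. Their level was nonetheless higher in LSK than in MEP libraries. The summed level of the 9 genes was 470 to 1420 CPM per LSK library, and in MEP libraries it was 196 to 330 at day 7, 59.7 to 85.3 under vehicle A, 197 to 355 under ruxolitinib and 45.4 to 83.3 under vehicle C.

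Rab27b came nearest to a call in LSK cells. It stood at 6.86, 11.8, 4.67 and 26.8 CPM at day 7, against 52.3, 44.1, 50.7 and 31.7 CPM under vehicle A. Its log2 change was -1.88 ± 0.41 (unadjusted p = 0.000207, adjusted p = 0.0762). All 4 day 7 libraries lay below all vehicle libraries, as did those of 1.74% of all genes, and replicate 4 was the highest of them. It was called lower by DESeq2, by voom with an animal block, with the replicate block and without day 7 replicate 4. At day 3 it stood at 26.8 to 35.8 CPM, a log2 change of -0.47 against vehicle A.

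Markers of other lineages moved in LSK cells at day 7. Neutrophil markers summed to 6450 to 12900 CPM at day 7, against 985 to 3730 CPM under vehicle A, and 4 of 10 rose, with S100a8 at 5.1 ± 0.49 and Elane at 2.58 ± 0.47 on the log2 scale. Mpo held most of these sums, at 4660 to 9040 CPM at day 7, against 624 to 2420 CPM under vehicle A. Erythroid markers summed to 420 to 811 CPM at day 7, against 405 to 1670 CPM under vehicle A, with 2 of 12 lower. Mast cell and basophil markers summed to 427 to 1040 CPM at day 7, against 124 to 761 CPM under vehicle A, with no call among 7. Stem cell markers summed to 840 to 1100 CPM at day 7, against 614 to 2150 CPM under vehicle A, with no call among 11. Macrophage markers were present in LSK libraries as well. Vcam1 stood at 403 to 3360 CPM at day 3, against 25.8 to 1300 CPM under vehicle A. C1qb stood at 202 to 844 CPM at day 3, against 17.6 to 470 CPM under vehicle A. Marco was low, at 1.65 to 2.81 CPM at day 3. At day 7 Vcam1 was at 37.9 to 115 CPM and C1qb at 12.1 to 40.9 CPM. No gene passed the test in LSK cells at day 3. The part of these cells in the LSK values, and in the differences between MEP and LSK cells, was not tested.

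Pf4 stood at 170, 358, 91.2 and 107 CPM in the LSK day 7 libraries, against 250, 140, 203 and 95.6 CPM under vehicle A. Replicate 2 of LSK day 7 had the highest level of that group for every gene of the 9 but Rab27b. Plek had 144 to 243 CPM at day 7 against 136 to 320 CPM under vehicle A, and 243 to 267 CPM under ruxolitinib against 254 and 267 CPM under vehicle C. Selp was high in the vehicle libraries that carry the animal number 18, at 319 CPM in batch A and 429 CPM in batch C, against 69.6 to 127 CPM in the other LSK vehicle libraries. Vwf was lower at day 3 without overlap, at 125, 126 and 129 CPM against 224, 151, 277 and 143 CPM under vehicle A, with a log2 change of -0.63 ± 0.39 that did not pass, and 1.66% of all genes were lower without overlap. Thbs1 stood at 2.31, 2.56 and 3.38 CPM under ruxolitinib, against 9.5 and 12.6 CPM under vehicle C, with a log2 change of -1.99 ± 0.79 (adjusted p = 0.539), and Ppbp at 6.37, 9.78 and 5.79 CPM, against 3.91 and 3.06 CPM under vehicle C, with a log2 change of 1.08 ± 0.74 (adjusted p = 0.621). With 3 libraries against 2, 12.2% of all genes were lower without overlap under ruxolitinib and 8.56% higher. Thbs1 varied widely within LSK groups, as vehicle A replicate 3 was at 1.83 CPM and day 3 libraries were at 18.9, 2.94 and 3.04 CPM.

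Whether a treatment changed a gene differently in MEP and LSK cells was tested as the change in MEP minus that in LSK. At day 7 this difference passed for 5 of the 9 genes, all higher in MEP, against 0.296% of all genes. It was 6.28 ± 1.12 for Ppbp (adjusted p = 0.0041), 4.17 ± 0.66 for Sdpr (adjusted p = 0.00124), 3.85 ± 0.77 for Plek (adjusted p = 0.0144), 3.45 ± 0.72 for Mmrn1 (adjusted p = 0.02) and 3.35 ± 0.79 for Pf4 (adjusted p = 0.0417). It did not pass for Vwf, Thbs1, Selp and Rab27b, with adjusted p of 0.146, 0.575, 0.263 and 0.299. Only 2 genes passed without MEP vehicle A replicate 2, without MEP vehicle A replicate 3 or without MEP day 7 replicate 3, and 3 passed without LSK day 7 replicate 1 or with the compared groups fitted alone. Under ruxolitinib it passed for 3 genes, against 0.123% of all genes. These were Plek at 3.91 ± 0.84 (adjusted p = 0.0294), Sdpr at 3.33 ± 0.72 (adjusted p = 0.029) and Selp at 3.28 ± 0.73 (adjusted p = 0.036), while Pf4 at 3.32 ± 0.87 did not (adjusted p = 0.0764). The ruxolitinib calls were all lost without LSK vehicle C replicate 2, LSK ruxolitinib replicate 2 or 3, or MEP ruxolitinib replicate 3, and 1 stayed without MEP vehicle C replicate 2. At day 3 none passed, against 0.0529% of all genes, 1 had an unadjusted p under 0.05 and DESeq2 called none. LSK and MEP libraries share animal numbers, and with these as a block Plek passed at day 3 with a difference of -2.15 ± 0.63 (adjusted p = 0.048). With that block 4 genes passed at day 7, Plek being lost (adjusted p = 0.0806), and 4 passed under ruxolitinib, where Pf4 and Mmrn1 were gained and Selp was lost (adjusted p = 0.058).

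The mean MEP level as a percentage of the mean LSK level shows how far apart the cell types stood in each condition. For Pf4 it was 4.82% under vehicle A, 3.23% at day 3 and 48.9% at day 7, and 27.2% under ruxolitinib against 2.72% under vehicle C. For Sdpr it was 2.65%, 3.94% and 47.4% over vehicle A, day 3 and day 7, and 21.8% under ruxolitinib against 2.13% under vehicle C. For Plek it was 2.03%, 0.906% and 29% over vehicle A, day 3 and day 7, and 25.8% under ruxolitinib against 1.71% under vehicle C. For these 3 genes the 2 cell types stood nearest to each other at day 7. Selp reached 7.71% at day 7 and 7.58% under ruxolitinib, so it stayed far below LSK in every condition. At day 7 the MEP and LSK ranges of Pf4, Ppbp, Vwf, Mmrn1, Sdpr and Rab27b overlapped, and under ruxolitinib no gene's ranges did. For Rab27b the day 7 value of 45%, against 16.2% under vehicle A, went with a lower LSK level, not with a higher MEP level. The summed stem cell markers gave 8.06% at day 7 against 5.19% under vehicle A, and 5.68% under ruxolitinib against 2.14% under vehicle C. Most of the rise of that sum in MEP cells under ruxolitinib was Cd34, at a mean of 53 CPM against 2.04 CPM under vehicle C.

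**Figure D3:**
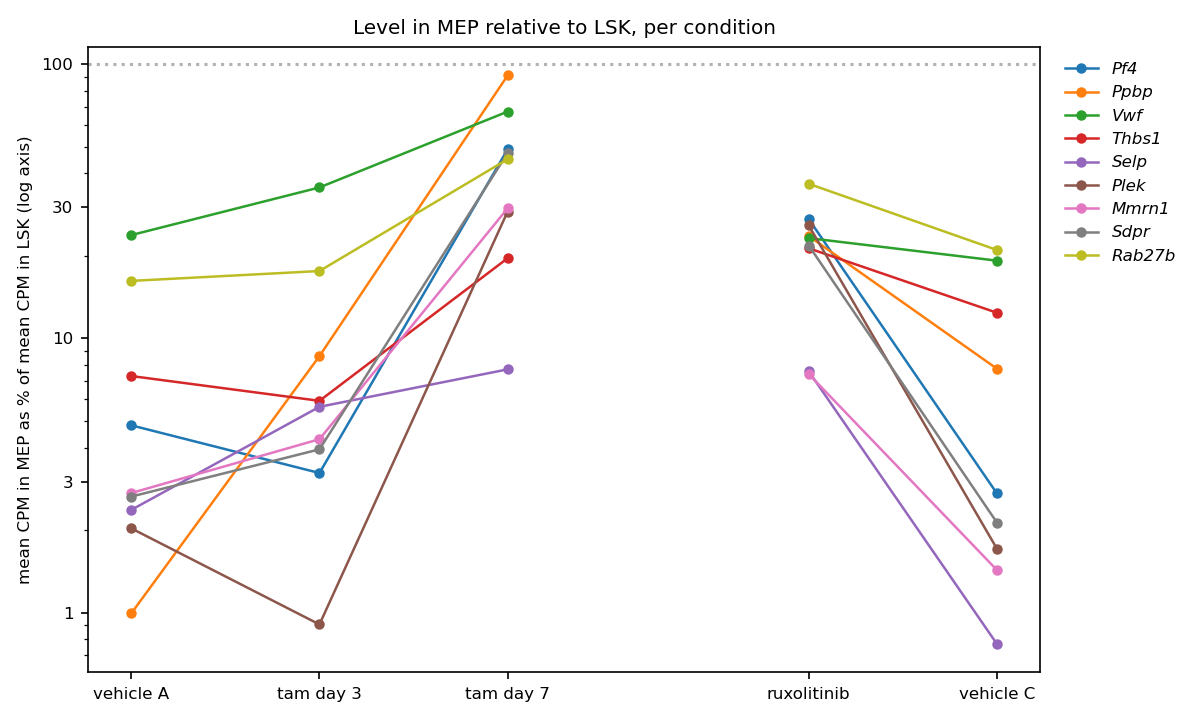
Mean CPM in MEP cells as a percentage of mean CPM in LSK cells (log axis) for each gene, with batch A on the left and batch C on the right. The lines of Pf4, Sdpr, Plek and Mmrn1 stay below 5% at vehicle A and day 3 and reach 29% or more at day 7, while Selp stays below 8%.

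Across the 16 MEP libraries, after the mean of each batch was subtracted, Pf4, Plek, Mmrn1 and Sdpr moved together. Pearson's r of log2 CPM was 0.96 for Pf4 with Sdpr, 0.96 for Pf4 with Plek, 0.95 for Plek with Sdpr and 0.93 for Pf4 with Mmrn1. Rab27b ranged from -0.15 to 0.41 with the other genes, and Thbs1 reached at most 0.6. These values describe libraries that share treatments, so they hold the treatment changes within them. Across the 16 LSK libraries, where no gene passed a treatment test, Vwf correlated at 0.86 with Sdpr, 0.86 with Ppbp and 0.85 with Mmrn1, and Pf4 at 0.83 with Sdpr. Plek, at 0.95 with Sdpr in MEP cells, was at 0.38 with it in LSK cells. Selp in LSK cells was at -0.43 with Mmrn1 and -0.26 with Pf4, but at 0.58 with Thbs1 and 0.48 with Plek.

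Over 10166 genes with a mean of at least 5 CPM in MEP cells, those most like Pf4 were Lcp2, an adaptor of immune and platelet receptor signalling (r = 0.986), and Fli1, a transcription factor of the megakaryocyte lineage (r = 0.985). Rin3, Tmem176b and Inpp1 followed at 0.974, 0.974 and 0.97. Those most like Plek were Cd9, a tetraspanin of the platelet surface (r = 0.977), Nkg7 (r = 0.97), Pf4 itself (r = 0.965), Tmem176b (r = 0.961) and Tuba8 (r = 0.961). Fli1 averaged 34.1 ± 7.5 CPM at day 7 and 6.5 ± 5.28 CPM under vehicle A in MEP cells (SD, n = 3 each), and 40.1 ± 10.1 CPM under ruxolitinib against 5.67 ± 6.01 CPM under vehicle C (SD, n = 3 each). Over 11485 genes in LSK cells, those most like Vwf were Sdpr (r = 0.861), Mmrn1 (r = 0.847), Ptgs1, the cyclooxygenase of platelets (r = 0.841), Slamf1, a stem cell surface marker (r = 0.828), and Trpc6 (r = 0.818). So 2 of the 5 closest genes to Vwf in LSK cells were other genes of the 9.

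**Figure D4:**
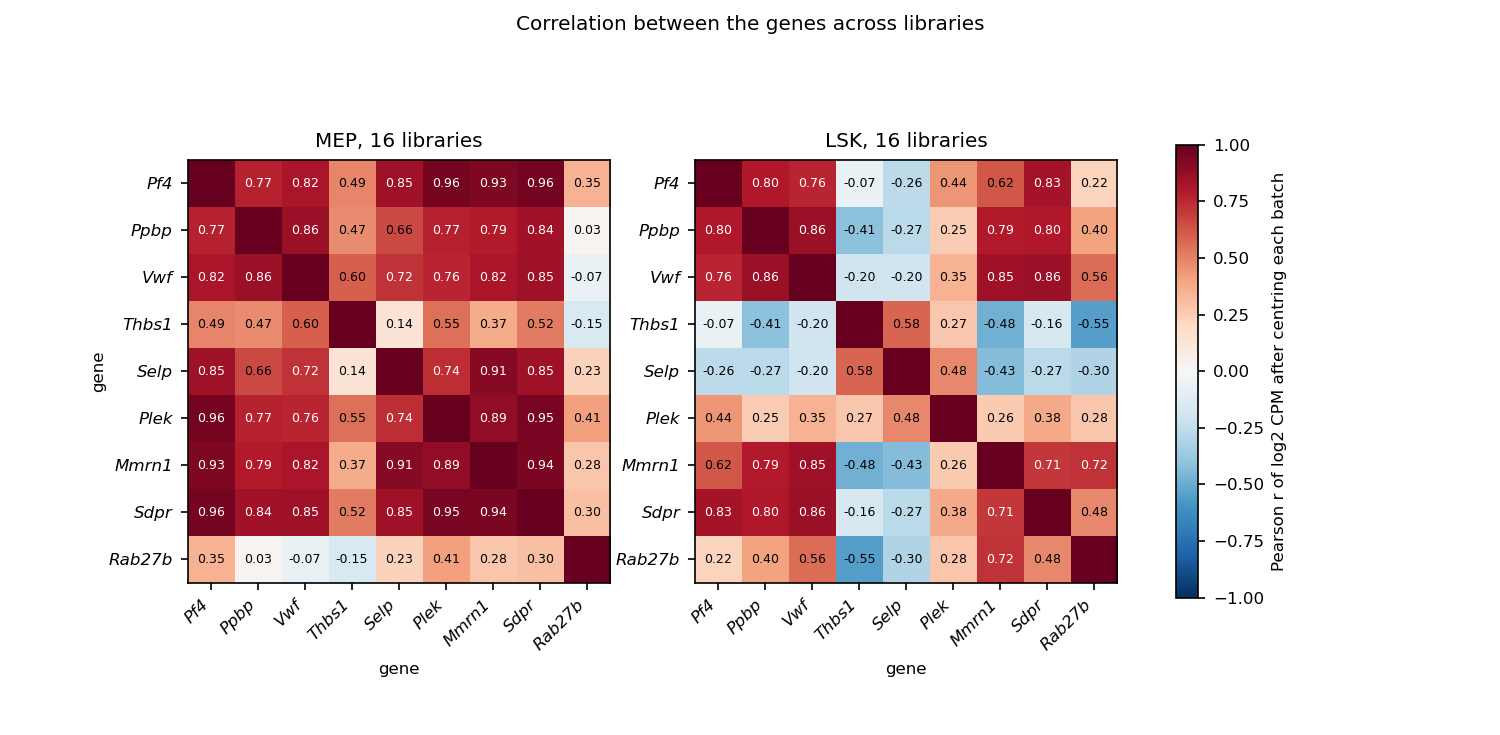
Pearson's r between pairs of the 9 genes over the 16 MEP libraries (left) and the 16 LSK libraries (right), on log2 CPM after the mean of each batch was subtracted. In MEP cells Pf4, Plek, Mmrn1 and Sdpr form a block at 0.89 to 0.96, and in LSK cells Plek, Selp and Thbs1 lie outside a block of Pf4, Ppbp, Vwf, Mmrn1 and Sdpr at 0.62 to 0.86.

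Further genes of granule biology were taken list by list in MEP cells after 7 days of tamoxifen. Of 20 other alpha granule cargo and membrane genes, 2 rose and none fell, with a median log2 change of 0.84. The risers were Angpt1, the ligand of the Tie2 receptor (2.22 ± 0.53, adjusted p = 0.00729), and Treml1, a receptor of the alpha granule membrane (1.67 ± 0.48, adjusted p = 0.0286). Of 15 tested genes of granule biogenesis and secretion, none rose and 2 fell, with a median of -0.12. These were the fusion proteins Stx11, which fell by 3.12 ± 0.46 on the log2 scale (adjusted p = 3.47e-05), and Vamp3, which fell by 0.89 ± 0.25. Among 16 dense granule genes, Slc18a2, the vesicular monoamine transporter, rose by 1.93 ± 0.3 and Cd63 by 1.52 ± 0.31, and Hps3 fell by 1.24 ± 0.26. The paralogue of pleckstrin, Plek2, fell by 2.74 ± 0.41 (adjusted p = 3.82e-05) while Plek rose, and it was the single call among 9 protein kinase C and pleckstrin partners. Plek2 stood at 5.64 ± 1.04 CPM at day 7, against 38.3 ± 19.1 CPM under vehicle A (SD, n = 3 each). Of 7 caveola genes the single call was Pacsin2, which fell by 1.29 ± 0.26. Cav2, a caveolin, had 0.948 to 1.34 CPM at day 7, against 0.214 to 0.637 CPM under vehicle A, a log2 change of 1.29 ± 0.76 that did not pass (adjusted p = 0.399). Among 15 receptors and ligands of the encoded proteins, Cd36, a thrombospondin receptor, rose by 1.68 ± 0.31, and none of the 4 tested chemokine neighbours of Pf4 and Ppbp passed.

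Of 14 platelet surface receptors 5 rose in MEP cells at day 7 and none fell, among them the thrombin receptor subunit F2rl2 (3.28 ± 0.66, adjusted p = 0.00133) and the integrin chain Itga2b (3.01 ± 0.41, adjusted p = 9.05e-06). Of 13 megakaryocyte transcription factors 4 rose and none fell, with Meis1 at 2.54 ± 0.4, Fli1 at 2.46 ± 0.57 and Gata2 at 1.32 ± 0.41. Under ruxolitinib 7 of 14 receptors rose and 1 fell, with Itga2b at 3.56 ± 0.42. The one that fell, the collagen receptor Gp6, was at 0 to 0.161 CPM, against 0.233 to 0.987 CPM under vehicle C. Meis1, Fli1 and Gata2 rose there too, by 3.04 ± 0.41, 2.62 ± 0.57 and 2.06 ± 0.41. Of the 20 other cargo genes 5 rose and 8 fell under ruxolitinib, where 3.43% of all genes rose and 38.5% fell, so the falls are read as no result about the list. The growth factors among them were low, with Gas6 at 0.0382 to 0.241 CPM, against 0.746 to 4.28 CPM under vehicle C, and Pdgfa at 0.0382 to 0.281 CPM, against 0.576 to 1.23 CPM under vehicle C. Treml1 at 2.06 ± 0.49 and Angpt1 at 2 ± 0.53 rose in this comparison too, and are named here because both rose at day 7. Of the 16 dense granule genes 5 rose and 1 fell there, with the nucleotide sugar transporter Slc35d3 at 2.25 ± 0.91, Hps6 at 1.95 ± 0.59, Cd63 at 1.56 ± 0.31 and Lyst at -1.89 ± 0.35. The level of Slc35d3 was low, at 0.84 to 1.89 CPM under ruxolitinib, against 0.14 to 0.362 CPM under vehicle C. Stx11 did not pass under ruxolitinib (0.59 ± 0.41, adjusted p = 0.25), and Plek2 fell by 2.35 ± 0.4. At day 3 in MEP cells the cargo, secretion, dense granule and surface receptor lists held no call, and Plek2 fell by 3.06. In LSK cells the single call in the granule, receptor and transcription factor lists was F13a1, a clotting factor chain of platelets and monocytes, which rose at day 7 by 3.08 ± 0.49.

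Markers of other cell types moved with these results in MEP cells. Platelet surface receptors summed to 237 to 359 CPM at day 7, against 67.5 to 144 CPM under vehicle A. Stem cell markers summed to 63.9 to 95.6 CPM at day 7, against 55.4 to 63.4 CPM under vehicle A, and 1 of 11 was called higher. That was Ly6a, at 0.566 to 1.37 CPM at day 7, against 0 to 0.0427 CPM under vehicle A, a level near no reads at which no fold is given. Erythroid markers summed to 6910 to 9700 CPM at day 7, against 7780 to 13000 CPM under vehicle A, and 6 of 12 fell. Car1 was the largest part of the sum, with a mean of 5910 CPM at day 7 against 4060 CPM under vehicle A. Tfrc had a mean of 298 CPM at day 7 against 2830 CPM under vehicle A, so the sum hides large falls. Neutrophil markers summed to 45.3 to 76.7 CPM at day 7, against 14.3 to 16.2 CPM under vehicle A, with 3 of 10 higher. Lymphocyte markers summed to 40.2 to 65.2 CPM at day 7, against 9.96 to 11.5 CPM under vehicle A, with 2 of 9 higher. Endothelial markers, which matter because endothelium makes Vwf, Selp and Mmrn1, summed to 94.9 to 122 CPM at day 7, against 70.6 to 75.2 CPM under vehicle A, with 2 of 12 higher and 2 lower. Mast cell markers summed to 22.9 to 32.2 CPM at day 7, against 11.4 to 15.6 CPM under vehicle A, with 1 of 6 higher, and of 11 macrophage markers none passed. No listed marker was at 0 in all libraries of either group, and the part of these cells in the rises was not tested.

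Under ruxolitinib the sums in MEP cells were 341 to 449 CPM for platelet surface receptors, against 79.1 to 157 CPM under vehicle C. For stem cell markers they were 56.2 to 123 CPM, against 36.1 to 40 CPM, with 2 of 11 higher and 1 lower. Most of that rise was Cd34, at 19.4 to 70.9 CPM, against 0.56 to 3.54 CPM. Procr, Mecom and Fgd5 had lower means under ruxolitinib than under vehicle C. For erythroid markers the sums were 17400 to 20800 CPM, against 13600 to 18300 CPM, with 2 of 12 higher and 4 lower. Car1 was the largest part, with a mean of 11500 CPM against 5980 CPM, while Tfrc had a mean of 1100 CPM against 3180 CPM. For neutrophil markers the sums were 56 to 228 CPM, against 6.67 to 16.2 CPM, with 4 of 10 higher and 4 lower. Mpo held most of that rise, at 34.4 to 178 CPM, against 1.12 to 4.41 CPM. S100a9, Ltf, Ngp and Lcn2 had lower means under ruxolitinib, with S100a9 at 0 to 0.115 CPM, against 0.14 to 0.723 CPM. For endothelial markers the sums were 75.4 to 118 CPM, against 55.3 to 81.1 CPM, with 3 of 12 higher and 7 lower. For mast cell markers they were 25.8 to 59.9 CPM, against 5.04 to 9.36 CPM. These counts stand beside 3.43% of all genes higher and 38.5% lower, and those of lower markers are read as no result about a cell type. The part of these cells in the ruxolitinib results was not tested either.

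**Figure D5:**
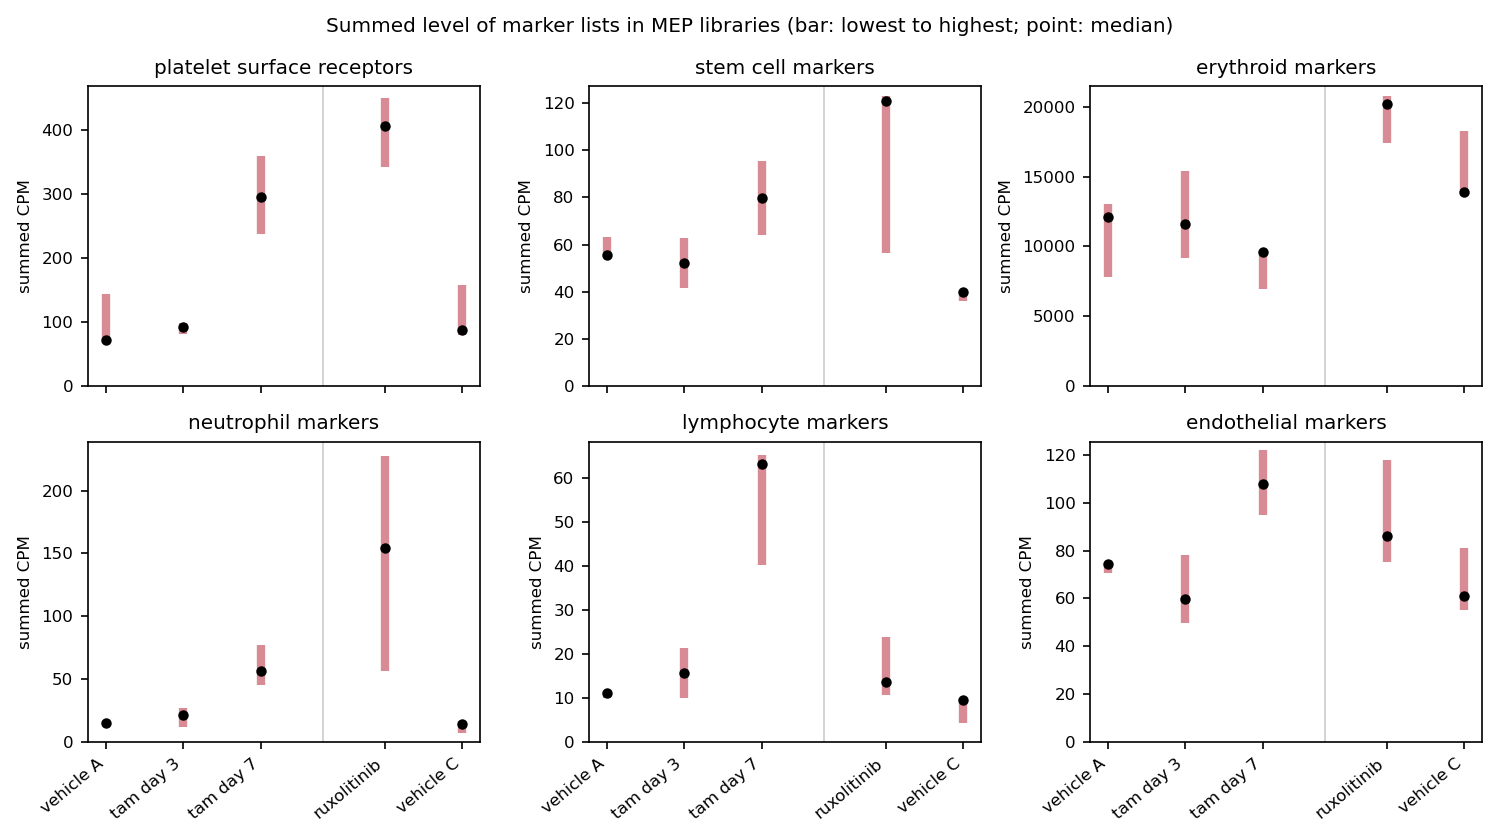
Summed CPM of 6 marker lists in MEP libraries by condition, as a bar from the lowest to the highest library and a point at the median. Platelet surface receptors, at 237 to 359 CPM at day 7 and 341 to 449 CPM under ruxolitinib, lie above both vehicle groups, and so do neutrophil markers. The neutrophil sum under ruxolitinib is mostly Mpo.

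Some reads cannot be assigned with certainty, since the labels give no strand setting for the counting. Plek shares 199 exonic bases with Cnrip1 on the opposite strand. Selp shares 438 with Gm16548 and 186 with Gm16587, and Thbs1 shares 208 with Gm29233, all on the opposite strand. The exons of Pf4, Ppbp, Vwf, Mmrn1, Sdpr and Rab27b overlap no exon of another gene.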

How the data were processed

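The authors deposited unnormalised read counts for each gene symbol, in 32 libraries of sorted mouse LSK and MEP cells. Per the submitters' processing notes, the authors used STAR and featureCounts with mm10, with tool versions, annotation and strand setting not given in the sources used here. Per the labels' protocols, sorting was into TriZOL, extraction used a Zymo Direct-Zol kit and paired-end sequencing used a Takara kit. Titles and characteristics gave the groups.

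Counts were tested with edgeR 4.0.16 (R 4.3.3), quasi-likelihood F test, two-sided, with TMM scaling. Genes passed filterByExpr with its count minimum at 10, and Benjamini-Hochberg adjusted p-values over all genes tested were read at 0.05. Treatment contrasts came from 1 fit per cell type (16 libraries each, 26930 genes in LSK and 25274 in MEP cells). Contrasts between cell types came from a joint fit (28378 of 33924 genes), whose TMM factors also scale the CPM values. The standard error is the size of the log2 change divided by the square root of F. The MEP fit was tested first on simulated data with known changes, in the comparison of day 7 with vehicle A. The LSK and joint fits were not tested in this way. Depth, given in the report, limits precision for low genes such as Ppbp. Positions and exon lengths were taken from GENCODE M21, and promoters from RefSeq. Every pair of libraries within the groups differed beyond counting error, with chi-square values per degree of freedom of 10.8 or higher. Such differences cannot show whether the libraries came from separate animals. Each library was taken as 1 replicate, which is an assumption.

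The alternatives were RLE factors, no filter, genes of mean CPM at least 10 alone, the compared groups alone, vehicles of both batches with a batch term, DESeq2 1.42.0, a replicate block, an animal number block, limma voom 3.58.1 with animal number as random block (for most comparisons added after the data were seen), and leaving out each replicate. Replicate numbers of the labels do not mark the same animals across treatments, apart from vehicle libraries, and same-numbered libraries deviated together at correlations of -0.33 to 0.37. In the comparison of MEP day 7 with day 3 the 3 correlations were 0.15, 0.14 and 0.15. The animal numbers differ there, so the block is no pairing of animals, and with it all 7 calls were kept. All 9 genes are named. From each gene list up to 4 genes are named, those called with the largest change, and 1 gene is not reported here. The genes most like Pf4, Plek and Vwf are the 5 with the highest r. The 9 genes and the lists were chosen with earlier results of these data known.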

Additional observations from a re-analysis of the deposited data

Results flagged for a closer look

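In the MEP day 3 group, replicate 2 stood apart from the other 3 libraries for Ppbp, at 0.0414 CPM against 0.28 to 0.315 CPM, with a gap of 0.873 of the group's range. Such a gap was looked for in 27 cases, the 9 genes in each of 3 groups of 4 libraries, and chance alone would set about 1 in 20 apart. Ppbp had 1 to 8 reads per library in the MEP day 3 group.

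The day 7 change differed between the cell types, by a test of the difference itself in edgeR. The change in MEP minus that in LSK was 6.28 for Ppbp, 4.17 for Sdpr, 3.85 for Plek, 3.45 for Mmrn1 and 3.35 for Pf4 on the log2 scale. The ruxolitinib change differed likewise for Plek at 3.91, Sdpr at 3.33 and Selp at 3.28. Within MEP cells the tamoxifen change at day 7 minus the ruxolitinib change was 3.86 for Thbs1 and 3.39 for Ppbp. Each of these was higher in the group named first, and the causes were not tested.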

How the results depend on the processing

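No result changed direction while called. The 6 day 7 rises of Pf4, Ppbp, Thbs1, Plek, Mmrn1 and Sdpr and the ruxolitinib rises of Pf4, Selp, Plek, Mmrn1 and Sdpr in MEP cells passed in every alternative that tested them. For Ppbp this adds no separate support, since it passed the filter in MEP cells through the groups in which it is high. With genes of mean CPM at least 10 alone, few of the 9 were tested, and the counts called were 3 for MEP day 7 against vehicle A, 3 for day 7 against day 3, 2 for ruxolitinib, 1 for the ruxolitinib difference between cell types and 0 for day 7 minus ruxolitinib in MEP. The day 7 difference between cell types had 3 calls with the compared groups fitted alone. In LSK day 7, Rab27b was the 1 call with the replicate block, with voom and with DESeq2. Day 7 minus ruxolitinib in LSK had 2 calls with voom, Mmrn1 and Rab27b. RLE factors moved the median log2 change of all genes in MEP to 0.33 at day 7 and to -0.93 under ruxolitinib, against 0.21 and -1.07 with TMM, and no called direction flipped.

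Leaving out each replicate in turn gave 6 to 7 calls for MEP day 7, 5 to 8 for MEP ruxolitinib, 7 for day 7 against day 3, 9 for MEP against LSK in either batch and 0 for MEP day 3, LSK day 3 and LSK ruxolitinib. It gave 0 to 1 for LSK day 7, 2 to 6 for the day 7 difference between cell types, 0 to 4 for that of ruxolitinib, 0 for that of day 3, 1 to 3 for day 7 minus ruxolitinib in MEP and 0 to 1 in LSK. The calls of Vwf at day 7 and of Ppbp and Rab27b under ruxolitinib rest on few libraries.

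With the replicate number as a block, the counts stayed at 7 for MEP day 7, 7 for MEP ruxolitinib and 5 for the day 7 difference, and the ruxolitinib difference had 2. These numbers do not pair animals between treatments, and their check gave correlations on both sides of 0. With a block by animal number across cell types, the day 3 difference had 1 call (Plek, lower in MEP, adjusted p = 0.048), and the day 7 and ruxolitinib differences had 4 each. This block could not be fitted for MEP against LSK under either vehicle, as no residual degree of freedom was left. The fit with a batch term is the same model as the group means and gave the same values. The causes of these shifts were not tested.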

Other observations

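Vehicle libraries with the same animal number in the 2 batches give each gene's shift between batches without treatment, as log2 CPM of batch C minus batch A. In MEP cells of the animal numbered 33, Pf4 differed by -1.67, Selp by -2.76 and Mmrn1 by -1.81, while Plek differed by 1.15 and the median over expressed genes was 1.02. In MEP cells of the animal numbered 12, Pf4 differed by 0.27 and Plek by -0.19, against a median of 0.24. Both genes were thus high in the vehicle libraries of either batch with that number. The labels do not say whether these libraries came from the same animal. Ppbp was higher in batch C for the animals numbered 12, 32 and 33, by 2.71, 0.51 and 1.44, from few reads. In LSK cells the shifts of the 9 genes lay between -1.14 and 0.72 for the animal numbered 12 and between -0.83 and 0.51 for that numbered 18.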
